A study of Mus musculus with 45 samples.

Results

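Interferon response genes are the transcripts that cells switch on when interferons, the signalling proteins released on contact with viruses, foreign nucleic acid or other danger signals, bind their receptors. The set described here is a list of 45 such genes picked by name, and all 45 were found among the 24946 usable genes of the deposited table. This list and the further gene lists below were chosen with earlier results of these data known. Their shares set against all genes are therefore descriptions and not independent tests. Of these, 44 had a mean of 0.5 TPM or more (transcript counts scaled to a fixed total per library) over all libraries and were tested. The exception was Oas3, with a mean of 0.484 TPM. The 44 members were higher, where they differed, in the ethanol-labelled livers: 12 at peak injury, 18 at early resolution and 22 at late resolution, with 0 lower at any stage. At peak the share called (27.3%) was near that of all genes (27.1%), and at the later stages it was above it. Guanylate-binding proteins led, with Gbp3 at 2.59 times, 2.79 times and 3.00 times its control-labelled level at the 3 stages on the log2(TPM + 0.5) scale, which understates the change of low genes.

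Type I interferons signal through a receptor shared by nearly all cells, and type II interferon (Ifng), made mainly by T and NK cells, signals through its own. Janus kinases at the receptors phosphorylate STAT proteins. Activated STAT complexes, 1 of which contains Stat2 and Irf9, then bind the interferon-stimulated response element or the gamma-activated site in the promoters of the genes listed here. In liver, hepatocytes, Kupffer cells, endothelial cells and lymphocytes can all carry such a response, and in a bulk sample more responding cells and more RNA per cell cannot be told apart.

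RNA from lysed liver tissue of wild-type (WT) mice was sequenced in bulk. The mice were on the Lieber-DeCarli liquid diet, a standard feeding model of alcohol-associated liver disease. Labels give 3 stages: peak comes at the end of 6 weeks on either diet, early resolution after 3 further days in which ethanol-fed mice ate control diet, and late resolution after 2 such weeks. Crossing stage with control or ethanol and with female or male gives 12 groups in 45 libraries, 9 groups of 4 and 3 groups of 3 (early ethanol female, late ethanol female and late ethanol male). Strain and age are not given here by any label, and no label says whether each library is 1 animal. The p-values therefore rest on library-to-library spread, which may be technical.

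Promoter letters were available from RefSeq (GRCm38.p6) for 33 of the 45 members, and they show what the set shares besides its name. In the 250 bases upstream of each RefSeq start, the core of the interferon-stimulated response element (GAAA, any 2 bases and GAAA again, or on the other strand TTTC, any 2 bases and TTTC) was found in 16 of 33 members, or 48.5%. Over the 27025 promoters of all genes it was found in 821, or 3.04%. The core of the gamma-activated site (TTCNNNGAA, the same on both strands) was found in 8 members, or 24.2%, against 7.18% of all promoters. Of the members called higher under the ethanol label at all 3 stages, 7 of the 9 with a promoter entry held the first core, and of those called at no stage 6 of 16 did. The 7 are printed as 120-base stretches of the gene's own strand, with both kinds of match in capitals, because they are the promoters of the genes that recur through the results.
Ifit3: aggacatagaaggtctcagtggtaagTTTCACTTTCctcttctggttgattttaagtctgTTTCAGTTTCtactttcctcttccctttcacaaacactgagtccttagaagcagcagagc
Ifit3b: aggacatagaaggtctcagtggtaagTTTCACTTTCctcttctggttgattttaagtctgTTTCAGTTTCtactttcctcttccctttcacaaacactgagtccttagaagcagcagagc
Oas1a: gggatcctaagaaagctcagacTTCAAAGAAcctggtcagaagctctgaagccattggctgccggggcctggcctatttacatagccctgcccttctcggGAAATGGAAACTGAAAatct
Igtp: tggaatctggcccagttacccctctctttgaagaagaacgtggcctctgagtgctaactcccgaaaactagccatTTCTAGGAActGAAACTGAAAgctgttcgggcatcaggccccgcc
Gbp2: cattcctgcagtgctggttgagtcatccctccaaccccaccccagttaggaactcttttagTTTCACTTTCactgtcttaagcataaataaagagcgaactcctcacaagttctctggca
Gbp3: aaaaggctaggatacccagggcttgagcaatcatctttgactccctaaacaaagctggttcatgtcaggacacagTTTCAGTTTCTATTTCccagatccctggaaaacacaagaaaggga
Gbp7: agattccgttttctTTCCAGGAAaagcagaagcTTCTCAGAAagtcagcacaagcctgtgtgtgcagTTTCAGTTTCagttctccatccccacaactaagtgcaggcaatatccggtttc

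The stretches lie at chr19:34583347-34583466 (Ifit3, plus strand), chr19:34607743-34607862 (Ifit3b, plus), chr5:120907526-120907645 (Oas1a, minus), chr11:58199436-58199555 (Igtp, plus), chr3:142620543-142620662 (Gbp2, plus), chr3:142559924-142560043 (Gbp3, plus) and chr3:142530216-142530335 (Gbp7, plus). The Ifit3 and Ifit3b stretches have identical letters and hold 2 matches to the first core each. In Oas1a and Gbp3 the 2 matches overlap and share bases. Igtp, Oas1a and Gbp7 hold the gamma-activated site core as well. These are matches of letters and not measured binding.

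Members sit in gene clusters on mm10. Ifit2, Ifit3, Ifit3b and Ifit1 lie together at chr19:34550694-34650009, and Psmb9, Tap1 and Psmb8 at chr17:34181987-34201454. The gene bodies of Gbp3 (chr3:142560026-142573209) and Gbp2 (chr3:142620602-142638008) are close neighbours, both on the plus strand. Near-identical copies make some values uncertain, since the counting rules are not given: Ifit3 and Ifit3b transcripts are 97.8% identical where they align, Oas1a and Oas1g 97.5%, and Gbp6 and the gene model Gm43302 99.8%. Exons of Igtp and Irgm2 share 162 bases on 1 strand, and those of Psmb9 and Tap1 share 212 bases on opposite strands.

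Transcripts from the sex chromosomes follow the diet label and not the sex label. Xist, from the inactive X chromosome, exceeded the Y-linked Eif2s3y in 21 of 21 ethanol-labelled libraries, and Eif2s3y exceeded Xist in 23 of 24 control-labelled ones, the exception being late control female 1. In 22 of 45 libraries, 11 of each sex label, these transcripts thus contradict the sex label. All 10 female-biased liver genes on a fixed list were called higher, and all 10 male-biased ones lower, in ethanol-labelled libraries at each stage. The diet label and the sex of the liver RNA therefore cannot be told apart. Whether the diet and sex labels were exchanged in the table was not tested, and if they were, each diet-label difference below would be one between sexes and each sex-label difference one between diets. Every direction refers to libraries as labelled. Depth is unknown because TPM hide it, and 15093 to 16402 genes were above 0 per library.

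B2m, the light chain of MHC class I and an abundant transcript in most cells, had the highest mean of the set at 821.6 TPM, ranging from 563.4 to 1347 TPM. Bst2, a membrane tether that holds budding virus on the cell, averaged 199 TPM and Ifi27, a mitochondrial protein induced by type I interferon, 125 TPM. At the other end, Cmpk2, a mitochondrial nucleotide kinase, averaged 0.546 TPM, Ifi44 0.744 TPM and the dynamin-like GTPase Mx1 0.803 TPM. No member was at 0 in any library. Levels of different genes can be set side by side only if the values are TPM, as read here, which are divided by transcript length.

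**Figure D1:**
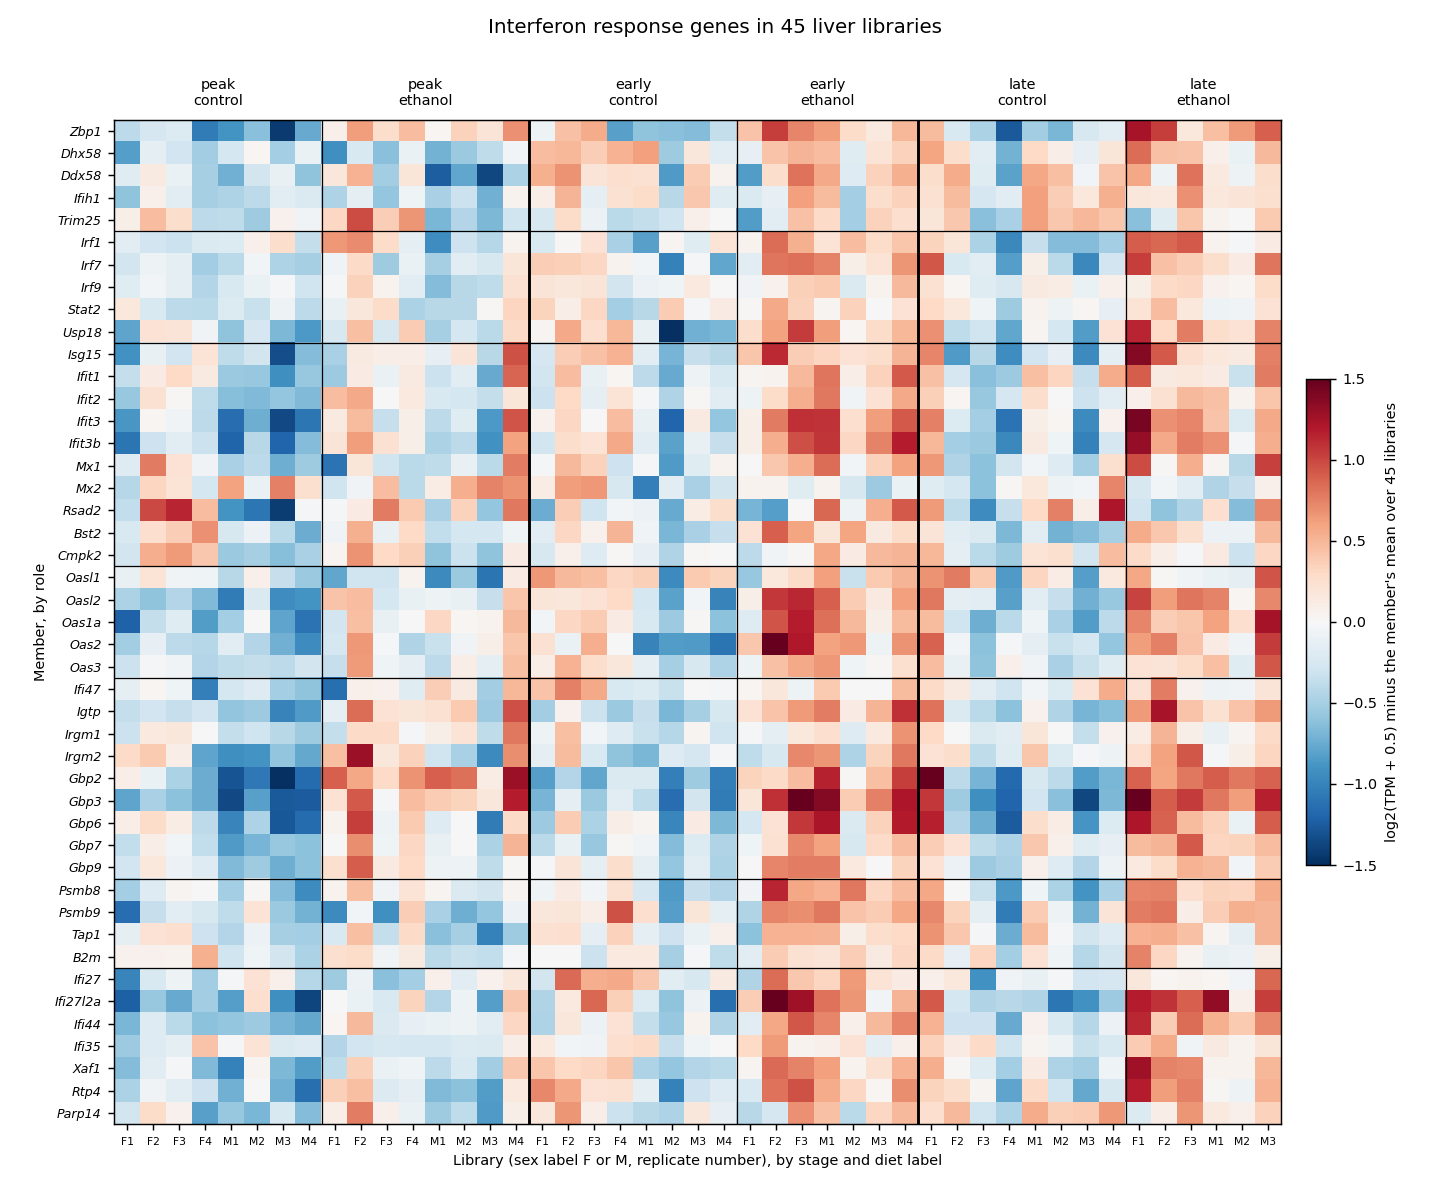
Each cell is log2(TPM + 0.5) of 1 member (rows, grouped by role) in 1 of 45 libraries (columns, by stage and diet label, then sex label F or M and replicate), minus the member's mean over all libraries. Red is above that mean and blue below, and the ethanol-labelled blocks are redder than the control-labelled ones in the rows of Gbp3, Gbp2, Zbp1 and Oasl2, while late control female 1 (late control, F1) is red within a mostly blue block.

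At peak, 12 of 44 members (27.3%) were called higher in ethanol-labelled libraries by limma at an adjusted p under 0.05. Among all 11244 genes tested, 27.1% were called, 17.3% in the higher direction and 9.81% in the lower. The members' median difference was 0.27 on the log2 scale against 0.05 for all genes. The share called is thus near that of all genes, although all 12 member calls pointed 1 way. At early resolution 18 of 44 members (40.9%) were called higher, against 16.7% of all genes called (14.3% higher and 2.46% lower). At late resolution 22 of 44 (50%) were called higher, against 12.8% of all genes (8.82% higher and 3.98% lower), with medians of 0.51 for members and 0.05 for all genes. The early medians were 0.48 and 0.13. The late count fell to 14 when either late control female 4 or late ethanol male 3 was left out.

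Scaling moved the balance of all genes but not the direction of the members' calls. At early resolution the median of all genes was 0.13 before and -0.03 after median-of-ratios scaling, so differences at that stage are given after scaling unless stated. Peak and late differences are on deposited TPM. A scaled early value beside them, here and below, therefore does not show a rise or fall between stages. With scaling 13, 14 and 23 members were called higher at the 3 stages, against 15.0%, 7.62% and 8.56% of all genes, and 0 lower, the 4 lost at early resolution being Bst2, Xaf1, Irf1 and Oas1a. Over all genes, the scaled calls were 1691 higher and 2325 lower at peak (1946 and 1103 unscaled), 857 and 1026 at early resolution (1603 and 277 unscaled), and 963 and 1411 at late resolution (992 and 448 unscaled). The members' scaled median difference was 0.19, 0.33 and 0.46 at the 3 stages.

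**Figure D2:**
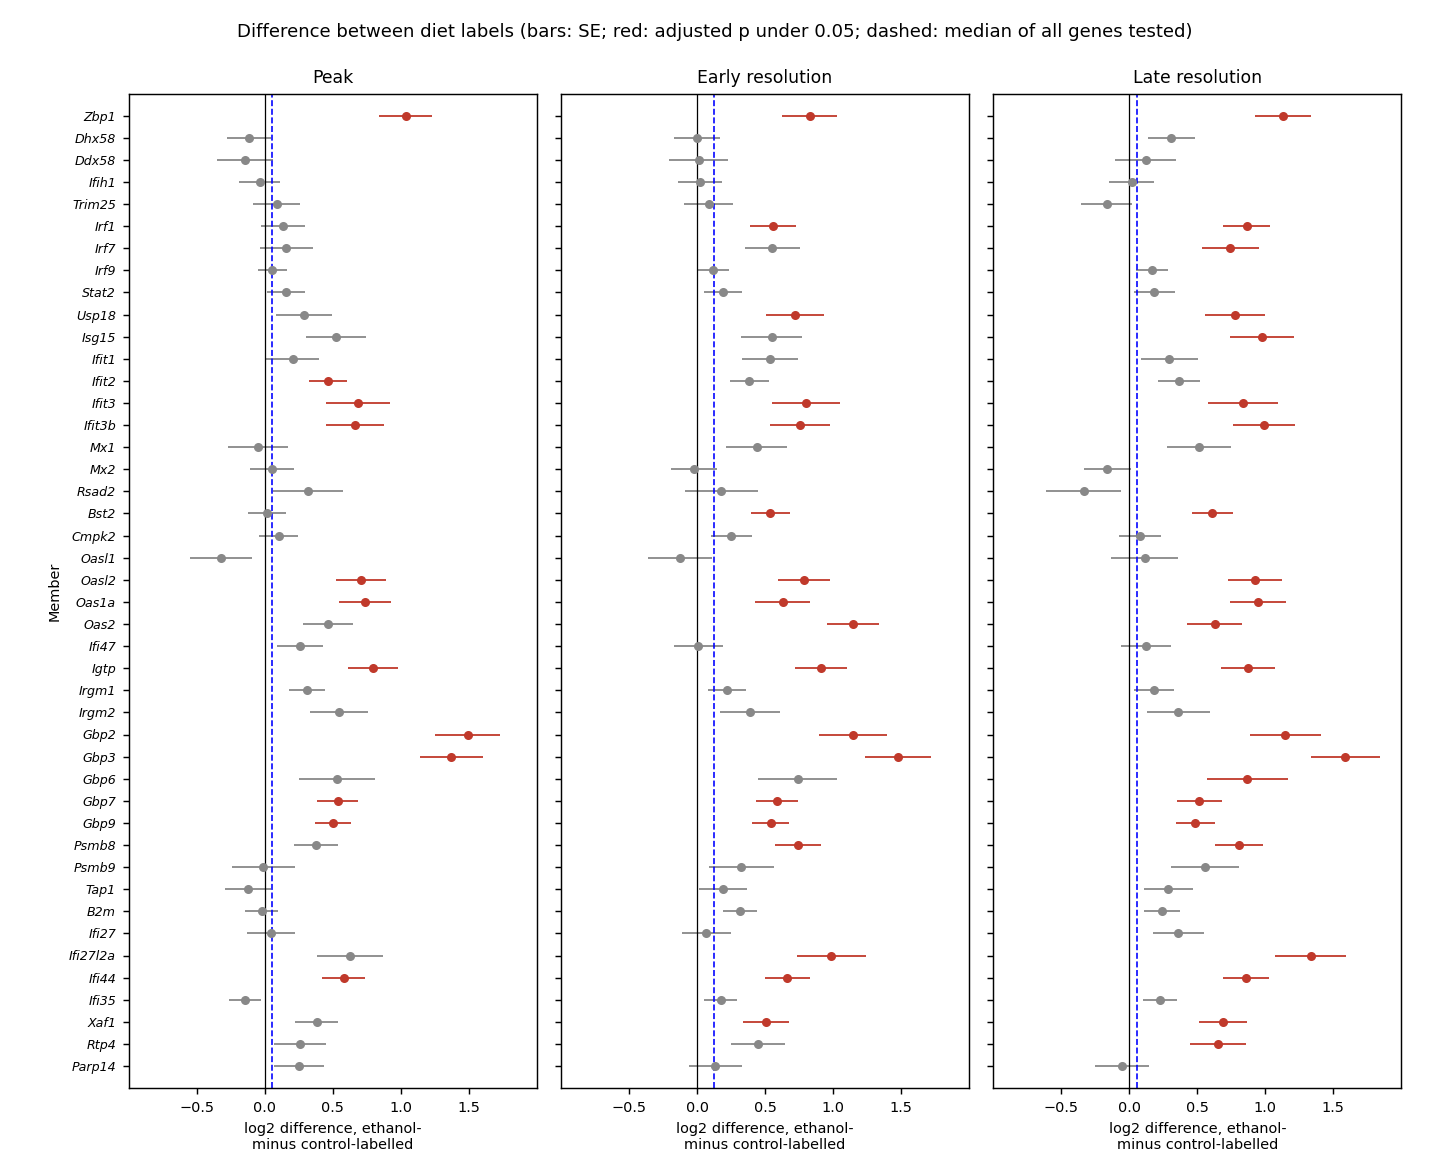
Points are log2 differences, ethanol-labelled minus control-labelled, of the 44 tested members at each stage on TPM as deposited, bars are SE, red marks an adjusted p under 0.05 and the dashed line is the median of all 11244 genes. Red points number 12, 18 and 22 from peak to late resolution and all lie to the right of 0, with Gbp3 and Gbp2 farthest right at peak.

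Calls recurred across stages, whose libraries do not overlap. Of the 44 members 11 (25%) were called higher at all 3 stages, as were 3.67% of all genes tested. They were Ifit3, Ifit3b, Oasl2, Oas1a, Zbp1, Ifi44, Igtp, Gbp2, Gbp3, Gbp7 and Gbp9. Another 7 were called at 2 stages (Oas2, Irf1, Usp18, Ifi27l2a, Bst2, Xaf1 and Psmb8) and 5 at 1 stage (Isg15, Irf7, Gbp6 and Rtp4 at late resolution, Ifit2 at peak). The Gbp6 call is marginal, with an adjusted p that rounds to 0.05. After scaling 10 members (22.7%) were called at all 3 stages, against 3.26% of all genes, Oas1a dropping to 2 stages, while Irf1, Bst2 and Xaf1 dropped from 2 stages to 1. On deposited TPM the remaining 21 members were called at no stage, among them Stat2, Irf9, Mx1, Mx2, Rsad2, B2m, Tap1 and 4 of the 5 members grouped as sensors. Groups of ethanol-labelled and control-labelled libraries did not overlap at all for 3 members at peak (Zbp1, Gbp2 and Gbp3), for 3 at early resolution (Igtp, Gbp2 and Gbp3) and for 0 at late resolution. Late control female 1, the control-labelled library in which Xist exceeded Eif2s3y, accounts for much of the late overlap. Without it all ethanol-labelled libraries lay above all control-labelled ones for 12 members (Isg15, Oasl2, Oas1a, Zbp1, Irf7, Ifi27l2a, Ifi44, Igtp, Gbp2, Gbp3, Bst2 and Psmb8), and 24 members were called in place of 22. Leaving it out also makes diet label and sex-chromosome transcripts coincide in every library, so larger differences without it are not clearer differences between diets. Shares of all genes are not given for these overlap counts or for the 24 calls. They do not show that such separation is particular to the members.

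The 5 members grouped as sensors are detectors of foreign or misplaced nucleic acid and Trim25, which activates 1 of them. Of these 5, 1 was called at each stage, and it was Zbp1 each time. Zbp1 binds Z-form nucleic acid and can start necroptotic cell death. At peak it lay between 14.7 and 23.4 TPM in the 8 ethanol-labelled libraries (median 17.9) and between 5.03 and 12.4 TPM in the 8 control-labelled ones (median 8.75), without overlap. The log2 difference was 1.04 ± 0.19 (SE; limma, adjusted p = 0.00011), and 8 of 8 ethanol-labelled libraries shared its direction. At early resolution the ranges were 16.1 to 30.1 TPM (median 20.6, n = 7) and 7.99 to 21.5 TPM (median 10.2, n = 8), the overlap coming from early control female 2 and 3. The scaled difference there was 0.65 ± 0.20 (limma, adjusted p = 0.022; 7 of 7 libraries). At late resolution Zbp1 lay between 16.2 and 34.6 TPM (median 25.1, n = 6) against 5.71 to 20.1 TPM (median 11.2, n = 8), a difference of 1.13 ± 0.21 (limma, adjusted p = 0.00024; 6 of 6 libraries). The ranges overlapped through late control female 1, the control-labelled library in which Xist exceeded Eif2s3y. Without it the difference was 1.27 ± 0.20 (limma, adjusted p = 1.3e-05), but diet label and sex-chromosome transcripts then coincide in every library.

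The cytosolic RNA helicase Ddx58 (RIG-I) was not called between diet labels. It lay between 2.67 and 11.2 TPM in ethanol-labelled and between 4.44 and 8.42 TPM in control-labelled libraries at peak, a log2 difference of -0.14 ± 0.21 (limma, adjusted p = 0.65). Trim25, the ubiquitin ligase that activates RIG-I, lay between 13.0 and 42.2 TPM against 14.5 and 29.5 TPM at peak, with a log2 difference of 0.09 ± 0.17 (limma, adjusted p = 0.74). The ranges of both genes overlapped. At late resolution the differences were 0.12 ± 0.22 for Ddx58 and -0.17 ± 0.19 for Trim25 (limma, adjusted p = 0.76 and 0.57). Ifih1 (MDA5) and Dhx58 (LGP2), relatives of RIG-I, were called at no stage either.

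Of the 5 genes of transcription and feedback, 0 were called at peak (limma; 0 at an unadjusted p under 0.05, 0 after scaling), 2 at early resolution (1 after scaling) and 3 at late resolution. Irf1, a transcription factor that answers to Ifng in particular, had overlapping ranges at peak, 13.4 to 43.1 TPM (median 25.3) under the ethanol label and 20.3 to 31.6 TPM (median 22.5) under the control label, and a difference of 0.13 ± 0.16 (limma, adjusted p = 0.57). By late resolution it lay between 25.8 and 50 TPM (median 38.1, n = 6) against 13.1 to 33.0 TPM (median 18.5, n = 8), a difference of 0.86 ± 0.17 (limma, adjusted p = 0.00077) that pointed the same way in 6 of 6 libraries. Its early difference of 0.56 ± 0.17 on deposited TPM (limma, adjusted p = 0.019) was 0.38 ± 0.15 after scaling (adjusted p = 0.078), and was 0.47 (adjusted p = 0.091) without early ethanol female 2.

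Irf7, which amplifies type I interferon production, lay between 24.1 and 45.7 TPM (median 29.4) in ethanol-labelled and between 11 and 42.5 TPM (median 18.4) in control-labelled libraries at late resolution. The difference was 0.74 ± 0.21 (limma, adjusted p = 0.016; 6 of 6 libraries), and the adjusted p was 0.053, 0.065 and 0.062 without late control female 4, late ethanol female 1 and late ethanol male 3 in turn. Usp18, which removes Isg15 from proteins and damps the type I receptor, lay between 12 and 23.4 TPM (median 15.1) against 5.53 to 16.9 TPM (median 8.36) at that stage. Its difference was 0.77 ± 0.22 (limma, adjusted p = 0.017; 6 of 6 libraries), with adjusted p values of 0.052, 0.066 and 0.059 without the same 3 libraries. The ranges of both genes overlapped. At early resolution Usp18 had a scaled difference of 0.55 ± 0.18 (limma, adjusted p = 0.032), and on deposited TPM the adjusted p rose to 0.068 without early ethanol female 3 and 0.058 without early control male 2. Stat2 and Irf9, which act together in a complex on the response element, were called at no stage.

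Antiviral effectors block virus entry, translation or budding. Of 10 tested, 3 were called at peak (Ifit2, Ifit3 and Ifit3b), 3 at early resolution (Ifit3, Ifit3b and Bst2) and 4 at late resolution (Isg15, Ifit3, Ifit3b and Bst2). Ifit3b belongs to the family that binds viral RNA and stalls translation. At peak it lay between 1.36 and 4.88 TPM (median 3.33) in ethanol-labelled and between 1.01 and 2.61 TPM (median 1.91) in control-labelled libraries, a difference of 0.66 ± 0.21 (limma, adjusted p = 0.018; 7 of 8 libraries). Without peak control female 1 the adjusted p was 0.054 and without peak ethanol male 4 it was 0.064. At late resolution the ranges were 2.93 to 8.19 TPM (median 4.87) and 1.22 to 4.41 TPM (median 2.18), with a difference of 0.99 ± 0.23 (limma, adjusted p = 0.0033; 6 of 6 libraries). The early difference was 0.60 ± 0.19 after scaling (limma, adjusted p = 0.027), and on deposited TPM its adjusted p was 0.064 without early ethanol female 3. Ranges overlapped at each stage, and the near-identical Ifit3 moved alike, with 0.69, 0.63 (scaled) and 0.84 at the 3 stages.

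Isg15, a ubiquitin-like protein that is attached to other proteins during the response, lay between 11.2 and 27.2 TPM (median 14.9) in ethanol-labelled and between 4.98 and 17.3 TPM (median 7.88) in control-labelled libraries at late resolution. The difference was 0.97 ± 0.23 (limma, adjusted p = 0.0047; 6 of 6 libraries). At peak the medians were 10.9 and 7.97 TPM, and the difference of 0.52 ± 0.22 did not pass (limma, adjusted p = 0.068). Bst2 lay between 180 and 283 TPM at late resolution against 117 to 220 TPM in the control-labelled libraries, a difference of 0.61 ± 0.15 (limma, adjusted p = 0.0057; 6 of 6 libraries). Mx1, Mx2, Rsad2 (viperin, which makes a chain-terminating nucleotide), Cmpk2 and Ifit1 were called at no stage between diet labels, and Rsad2 had differences of 0.32 ± 0.26 at peak and -0.34 ± 0.28 at late resolution.

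Oligoadenylate synthetases sense double-stranded RNA and make the second messenger that activates RNase L, while the Oasl proteins are their relatives. Of 4 tested, 2 were called at peak (Oas1a and Oasl2) and 3 at both later stages (Oas1a, Oas2 and Oasl2). Oasl2 lay between 3.07 and 5.79 TPM (median 3.76) against 1.69 to 3.40 TPM (median 2.44) at peak, a difference of 0.71 ± 0.18 (limma, adjusted p = 0.0038; 8 of 8 libraries). At early resolution it lay between 4.32 and 9.45 TPM (median 6.47) against 1.78 to 5.10 TPM (median 4.27), a scaled difference of 0.62 ± 0.15 (limma, adjusted p = 0.0032). Late values were 4.15 to 8.65 TPM (median 7.07) and 2.09 to 7.39 TPM (median 3.31), a difference of 0.93 ± 0.20 (limma, adjusted p = 0.0015). Each pair of ranges overlapped.

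Oas2 differed most at early resolution, where it lay between 2.84 and 9.90 TPM (median 5.04) in ethanol-labelled and between 1.15 and 4.64 TPM (median 2.13) in control-labelled libraries. The scaled difference was 0.98 ± 0.19 (limma, adjusted p = 0.00022; 7 of 7 libraries). At late resolution it was 0.63 ± 0.20 (limma, adjusted p = 0.033), a call lost when any 1 of 7 libraries was left out (late control female 2, 3 or 4, late ethanol female 1 or 2, late control male 4, late ethanol male 3; adjusted p from 0.055 to 0.15). Oas1a lay between 4.62 and 8.22 TPM (median 5.95) against 2.20 to 5.75 TPM (median 3.49) at peak, a difference of 0.74 ± 0.19 (limma, adjusted p = 0.0039; 8 of 8 libraries). Its late difference was 0.94 ± 0.21 (limma, adjusted p = 0.0019). Its early one was 0.46 ± 0.17 after scaling (adjusted p = 0.067), and on deposited TPM the call (adjusted p = 0.027) was lost without any 1 of early control female 1, early ethanol female 2 or 3, early control male 2 or 4, or early ethanol male 1 (adjusted p from 0.055 to 0.12).

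The interferon-inducible GTPases, which coat and break the compartments of intracellular pathogens, held the largest difference of the set at each stage, that of Gbp2 at peak and of Gbp3 afterwards. Of 9 tested, 5 were called at peak and the same 5 at early resolution (Igtp, Gbp2, Gbp3, Gbp7 and Gbp9), and Gbp6 joined them at late resolution. Their median difference was 0.54 at peak, 0.45 at early resolution after scaling and 0.51 at late resolution. Irgm1, Irgm2 and Ifi47 were called at no stage. For Irgm2 at peak the difference was 0.55 ± 0.21, with an adjusted p of 0.051 on deposited TPM and 0.047 after scaling (limma).

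Gbp3 was called under the ethanol label at each stage in both sex labels, although its female-labelled calls at peak and early resolution were lost when single libraries were left out. At peak it lay between 4.79 and 11.6 TPM (median 6.36) in the 8 ethanol-labelled libraries and between 1.59 and 3.31 TPM (median 2.56) in the 8 control-labelled ones. The difference was 1.37 ± 0.23 (limma, adjusted p = 3.1e-05; 8 of 8 libraries) and the groups did not overlap. At early resolution the ranges were 5.55 to 14.7 TPM (median 10.9, n = 7) and 1.93 to 4.35 TPM (median 3.37, n = 8), again without overlap, with a scaled difference of 1.31 ± 0.20 (limma, adjusted p = 6.2e-06; 7 of 7 libraries). At late resolution they were 7.77 to 15.6 TPM (median 10.1, n = 6) and 1.57 to 10.7 TPM (median 2.91, n = 8), a difference of 1.59 ± 0.25 (limma, adjusted p = 2.4e-05; 6 of 6 libraries). Late control female 1 held the value of 10.7 TPM, and the other 7 control-labelled libraries lay at or below 3.90 TPM. Without that library the difference was 1.83 ± 0.21 (limma, adjusted p = 3.8e-08), with diet label and sex-chromosome transcripts then coinciding in every library.

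Gbp2 is a close relative that attacks the vacuoles of intracellular bacteria and parasites. At peak it lay between 6.03 and 14.3 TPM (median 9.69) against 1.42 to 5.97 TPM (median 2.75), without overlap, a difference of 1.49 ± 0.24 (limma, adjusted p = 1.3e-05; 8 of 8 libraries). Within the control-labelled libraries at peak the male-labelled ones lay between 1.42 and 2.38 TPM and the female-labelled ones between 3.12 and 5.97 TPM. At early resolution the ranges were 5.63 to 13.0 TPM (median 7.80) and 2.46 to 4.72 TPM (median 3.36), again without overlap, with a scaled difference of 0.98 ± 0.22 (limma, adjusted p = 0.0015). At late resolution they were 8.62 to 10.9 TPM (median 10.3) and 2.20 to 19.4 TPM (median 3.68), a difference of 1.15 ± 0.26 (limma, adjusted p = 0.0027). The highest of all 45 values, 19.4 TPM, was again late control female 1. Without it the difference was 1.45 ± 0.19 (limma, adjusted p = 2.8e-07), again with diet label and sex-chromosome transcripts coinciding. With the late stage fitted alone, Gbp2 (adjusted p = 0.061), Usp18 (0.066), Irf7 (0.092) and Oas2 (0.11) were not called.

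Igtp, an immunity-related GTPase of the vacuole-attacking kind, was far more abundant. It lay between 36.4 and 105 TPM (median 62.3) against 26.4 to 43.7 TPM (median 39.1) at peak, a difference of 0.80 ± 0.18 (limma, adjusted p = 0.0013; 8 of 8 libraries). At early resolution the ranges of 58.2 to 115 TPM and 33.0 to 55.8 TPM did not overlap, and the scaled difference was 0.73 ± 0.17 (limma, adjusted p = 0.0027). At late resolution it lay between 62.9 and 127 TPM (median 77.8) against 32.7 to 94.1 TPM (median 39.6), a difference of 0.87 ± 0.20 (limma, adjusted p = 0.0028). Gbp7 and Gbp9 were near 1 TPM on average (means of 1.43 and 1.02 TPM), with differences of 0.54 and 0.50 at peak and 0.52 and 0.48 at late resolution.

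**Figure D3:**
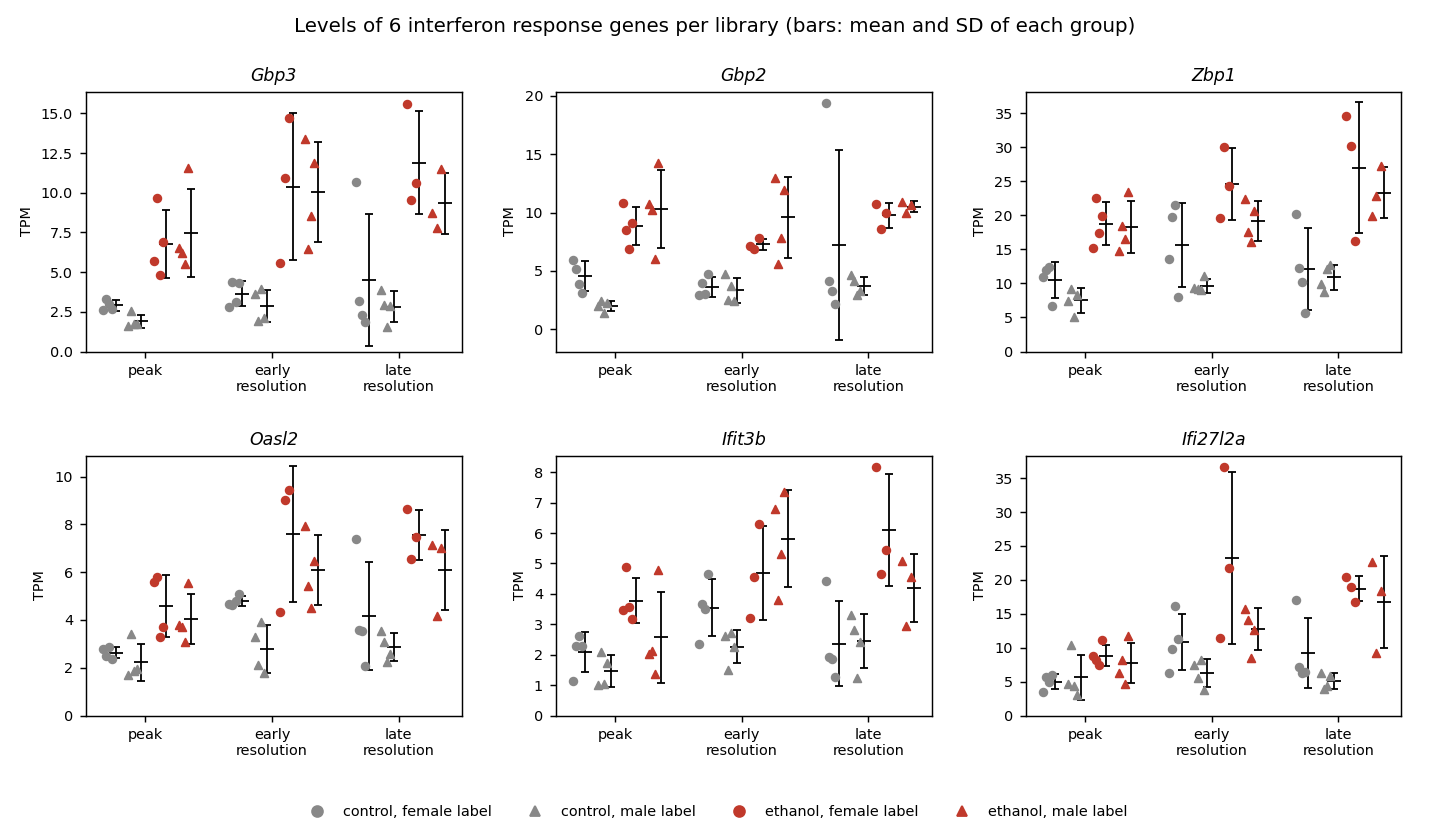
Points are TPM of 6 members in each library (grey control-labelled, red ethanol-labelled; circles female-labelled, triangles male-labelled), and bars are the mean and SD of each of the 12 groups of 3 or 4 libraries, the SD bar reaching below 0 for Gbp2 in late control female-labelled libraries. Red points lie above grey ones for Gbp3 and Gbp2 at peak and early resolution, and at late resolution 1 grey circle, late control female 1, stands at 10.7 TPM for Gbp3 and 19.4 TPM for Gbp2.

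Antigen processing was represented by 4 members: the immunoproteasome subunits Psmb8 and Psmb9, the peptide pump Tap1 and B2m. Psmb8 was called at early and late resolution and the other 3 at no stage between diet labels. Psmb8 lay between 21.1 and 35.4 TPM (median 26.5) against 13.2 to 26.4 TPM (median 20.1) at peak, a difference of 0.37 ± 0.16 that did not pass (limma, adjusted p = 0.081). At late resolution it lay between 30.7 and 43.6 TPM (median 35.3) against 13.6 to 38.7 TPM (median 19.3), a difference of 0.81 ± 0.18 (limma, adjusted p = 0.0017; 6 of 6 libraries), and its scaled early difference was 0.56 ± 0.14 (limma, adjusted p = 0.0059). B2m lay between 608.4 and 971.9 TPM (median 780.3) against 581.7 to 1163 TPM (median 804.0) at peak, a difference of -0.02 ± 0.12 (limma, adjusted p = 0.92). Tap1 had overlapping ranges, 2.08 to 6.60 TPM and 3.14 to 5.65 TPM, and a difference of -0.12 ± 0.17 (limma, adjusted p = 0.62).

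Of the 7 other induced genes, 1 was called at peak (Ifi44), 3 at early resolution (Ifi27l2a, Ifi44 and Xaf1; Ifi27l2a and Ifi44 after scaling) and 4 at late resolution, when Rtp4 was also called. Ifi27l2a, a small protein of the Ifi27 family, had the largest late difference after Gbp3. It lay between 9.26 and 22.6 TPM (median 18.7) in ethanol-labelled and between 3.86 and 17.0 TPM (median 6.24) in control-labelled libraries, a difference of 1.33 ± 0.26 (limma, adjusted p = 0.00058; 6 of 6 libraries). At peak its medians were 8.18 and 4.81 TPM and its difference was 0.63 ± 0.24 (limma, adjusted p = 0.051). Ifi44 stayed at low levels, 0.508 to 1.14 TPM (median 0.603) against 0.188 to 0.523 TPM (median 0.273) at peak, a difference of 0.58 ± 0.16 (limma, adjusted p = 0.0056; 8 of 8 libraries). At late resolution it lay between 1.02 and 2.07 TPM against 0.192 to 1.18 TPM, a difference of 0.86 ± 0.17 (limma, adjusted p = 0.00061). Xaf1, an interferon-induced partner of the caspase inhibitor XIAP, had a late difference of 0.69 ± 0.17 (limma, adjusted p = 0.0071; 6 of 6 libraries), with medians of 4.46 and 2.48 TPM and overlapping ranges.

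Within the sex labels the counts were small and rested on single libraries. At peak 1 member (Gbp3) was called in female-labelled libraries, against 6.65% of all genes, and 11 in male-labelled libraries, against 23.4%. In the female-labelled libraries at peak same-numbered replicates of the diet labels deviated together, and with the replicate number as a block Zbp1 and Gbp2 were called besides Gbp3, 3 members in all (limma, adjusted p = 0.0049, 0.049 and 0.029). The share of all genes called with the block is not given, so these 3 cannot be set against it. Without the block the single call was lost when any 1 of peak control female 1 to 4 or peak ethanol female 1 or 2 was left out, with a pseudocount of 2 and with no filter. The male-labelled count was 6, 5 and 6 without peak control male 1, 3 and 4, and 7 and 4 without peak ethanol male 1 and 4. Gbp2 showed the widest gap, 0.91 ± 0.34 in female-labelled and 2.07 ± 0.34 in male-labelled libraries (limma, adjusted p = 0.10 and 2.6e-05), 0.72 and 2.14 after scaling. Scaled counts at peak were 1 and 15 of 44, against 889 and 3740 of 11244 genes. In male-labelled libraries the members' share was thus near that of all genes, with and without scaling. Scaling lowered the median of all genes from 0.15 to -0.03 in female-labelled libraries.

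At early resolution 1 member (Gbp3) was called in female-labelled libraries, against 3.92% of all genes, and 16 in male-labelled ones, against 8.39%. After scaling 13 were called in male-labelled ones, against 944 of 11244 genes. The female-labelled count was 0 without early control female 1 or 3 or early ethanol female 2 or 3, and 3 without early ethanol female 1. The male-labelled count was 6, 9, 8 and 9 without early control male 2, early control male 4, early ethanol male 1 and early ethanol male 4. At late resolution 7 were called in each sex label, against 2.46% of all genes in female-labelled and 6.44% in male-labelled libraries. After scaling 9 and 11 were called, against 435 and 1395 of 11244 genes. Gbp3 and Zbp1 were in both unscaled lists of 7. The female-labelled count was 22 without late control female 1, 4 without late control female 2 or 3, 0 without late control female 4 and 1 without late ethanol female 1. The male-labelled count was 4, 3, 3 and 2 without late control male 2, late control male 3, late ethanol male 1 and late ethanol male 3.

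The difference between sex labels in the diet-label difference was itself tested, and 0 members passed at peak, early or late resolution (limma; 5, 1 and 0 at an unadjusted p under 0.05; 0 after scaling at each stage), against 0.16%, 0.00889% and 0.0445% of all genes. For Gbp2 at peak it was 1.16 ± 0.48 (limma, adjusted p = 0.33), or 1.42 after scaling (adjusted p = 0.10). A larger diet-label difference in male-labelled livers was thus not established for any member.

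Change over time was tested in the same way. From peak to early resolution 0 members passed (limma; 2 at an unadjusted p under 0.05; 0 after scaling), against 0.0% of all genes, and from peak to late resolution 0 passed (4 at an unadjusted p under 0.05), against 3.98% of all genes. After scaling 2 members passed from peak to late, Irf1 at 0.73 (adjusted p = 0.028; 0.066 unscaled) and Bst2 at 0.60 (adjusted p = 0.040; 0.078 unscaled). Their differences at peak had been 0.13 and 0.02. For the other members the counts of 12, 18 and 22 are not accompanied by a called change in the size of the difference.

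Comparing the sex labels directly gave another picture at peak. There 2 members were higher in male-labelled libraries (Ifi27 and Mx2) and 14 lower, 16 of 44 (36.4%), against 51.0% of all genes called (4.26% higher and 46.7% lower). The median of all genes was -0.29, and after scaling it was 0.01. With scaling 6 members were higher (Ifi27, Mx2, Dhx58, Ifi35, Ifi47 and Oas1a) and 3 lower (Cmpk2, Trim25 and Gbp9), against 16.2% and 15.5% of all genes. The members' median was -0.27 before and 0.04 after scaling, and 3 of the 14 lower calls were kept. The 11 lower calls not kept after scaling were those of Gbp6, Rtp4, Tap1, B2m, Parp14, Irgm2, Rsad2, Bst2, Ifit2, Gbp7 and Ddx58.

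Cmpk2 lay between 0.337 and 1.11 TPM (median 0.816) in the 8 female-labelled and between 0.148 and 0.604 TPM (median 0.202) in the 8 male-labelled libraries at peak. The scaled difference, male-labelled minus female-labelled, was -0.65 ± 0.13 (limma, adjusted p = 0.00029). Trim25 lay between 16.1 and 42.2 TPM (median 27.0) against 13.0 to 22.1 TPM (median 15.9), a scaled difference of -0.37 ± 0.12 (limma, adjusted p = 0.021). In the other direction, Ifi27 lay between 60.3 and 114 TPM (median 83.8) in female-labelled and between 89 and 140 TPM (median 126) in male-labelled libraries, with a scaled difference of 0.80 ± 0.16 (limma, adjusted p = 0.00042). Mx2 lay between 2.96 and 5.91 TPM (median 3.69) against 3.82 to 7.33 TPM (median 6.41), a scaled difference of 0.82 ± 0.19 (limma, adjusted p = 0.0013). All of these ranges overlapped. Neutrophil markers differed between the same libraries, 4 of 5 tested being higher in male-labelled ones with summed levels of 30.9 to 154 TPM against 5.14 to 69.1 TPM, and 8 of 9 endothelial markers were lower (3 after scaling). Of all genes 4.26% were higher and 46.7% lower (16.2% and 15.5% after scaling). The part of either marker list in these differences was not tested.

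**Figure D4:**
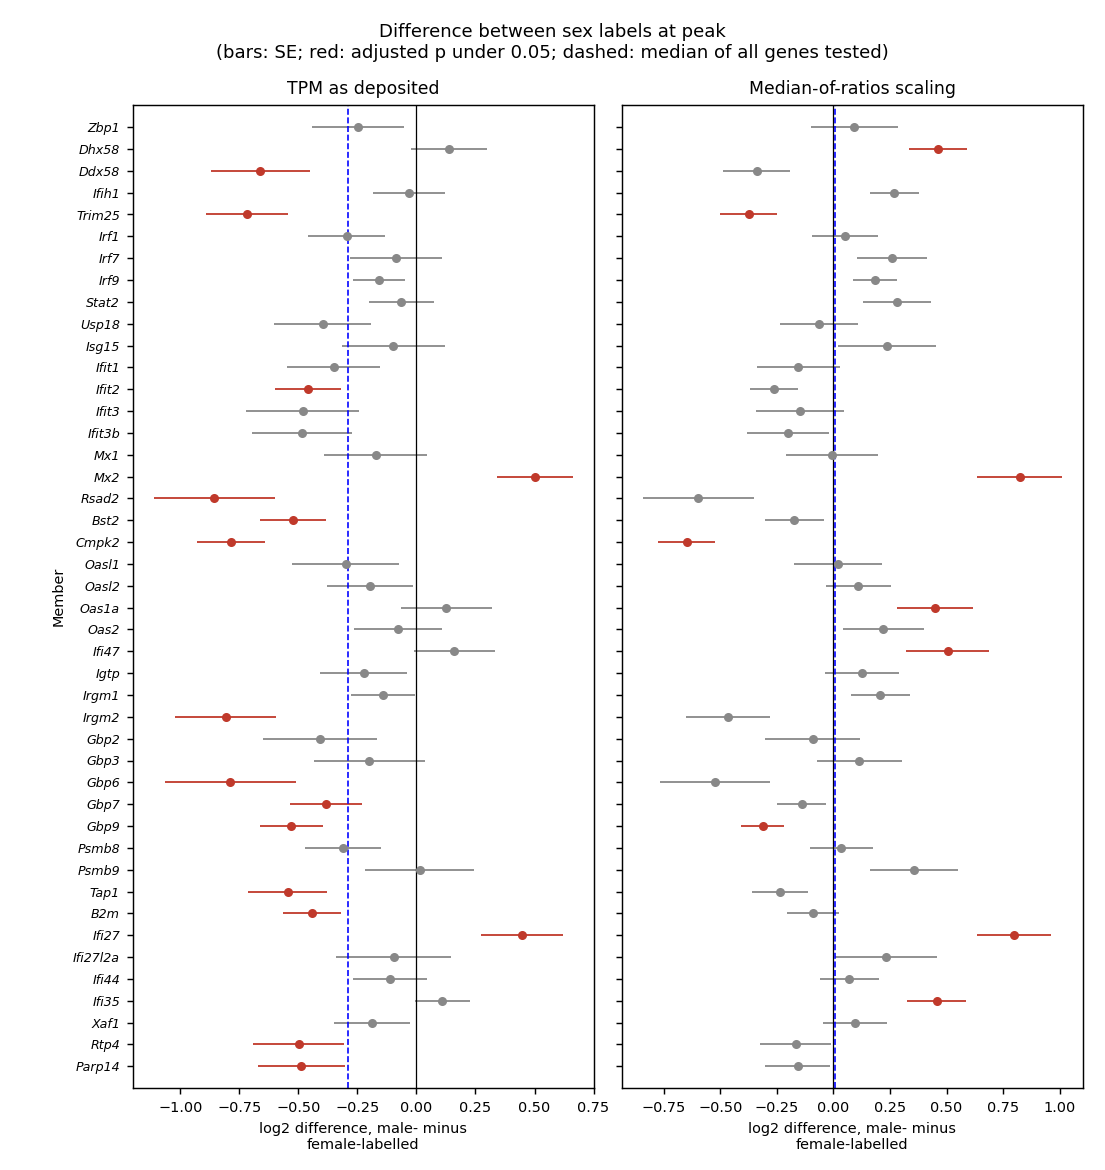
Points are log2 differences at peak, male-labelled minus female-labelled, of the 44 tested members on deposited TPM (left) and after median-of-ratios scaling (right), bars are SE, red marks an adjusted p under 0.05 and the dashed line is the median of all genes. The dashed line sits at -0.29 on the left and 0.01 on the right, and red points number 16 (2 higher, 14 lower) on the left and 9 (6 higher, 3 lower) on the right.

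Few members were called between sex labels at the later stages. At early resolution Oas2 alone was called, lower in male-labelled libraries at 1.15 to 5.13 TPM (median 2.16) against 2.80 to 9.90 TPM (median 4.19), a difference of -0.86 ± 0.19 (limma, adjusted p = 0.025), against 0.596% of all genes. Without any 1 of early control female 1 or 3, early ethanol female 2, early control male 4 or early ethanol male 3 or 4 it was not called. After scaling Usp18 and Xaf1 were lower as well. At late resolution 0 members were called (limma; 6 at an unadjusted p under 0.05), against 3.25% of all genes, and 3 were lower after scaling (Irf1, Xaf1 and, at an adjusted p that rounds to 0.05, Rtp4).

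Libraries labelled ethanol female and control male are the 2 groups per stage in which the sex label and the sex-chromosome transcripts go together. These 2 groups were compared on deposited TPM only, without scaling. This gave 21, 17 and 20 members higher in ethanol female-labelled libraries at peak, early and late resolution, and 0, 0 and 1 lower. Of all genes 34.9%, 8.59% and 13.7% were higher and 2.96%, 2.59% and 15.1% lower. The lower one was Rsad2 at -1.04 ± 0.39 (limma, adjusted p = 0.044), which at peak was among the higher ones at 1.17 ± 0.36 (adjusted p = 0.012). In this comparison both labels differ at once, so it does not separate them.

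Transcripts of interferons themselves were at or near 0. Of the 21 interferon genes listed, 16 were at 0 in all 45 libraries and 0 had a mean high enough to test. Ifng was above 0 in 25 libraries with a highest value of 0.0542 TPM, and Ifnb1 in 2 libraries with at most 0.0732 TPM. Of 10 receptor, kinase and STAT genes tested, 4 were called higher at peak under the ethanol label, 3 at early and 3 at late resolution, with 0 lower (4, 2 and 3 higher and 1, 1 and 0 lower after scaling). For this and the lists that follow, 17.3%, 14.3% and 8.82% of all genes were higher at the 3 stages and 9.81%, 2.46% and 3.98% lower. After scaling 15.0%, 7.62% and 8.56% were higher. Ifngr1, the ligand-binding chain of the type II receptor, differed by 0.59 ± 0.11 at peak, 0.33 after scaling at early resolution and 0.49 ± 0.11 at late resolution (limma, adjusted p = 6.4e-05 at peak and 0.0037 at late resolution). Stat3, a signal transducer used by interleukin 6 as well, differed by 0.87 ± 0.17 at peak (limma, adjusted p = 0.00017).

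Upstream of interferon, 13 genes of the induction pathway gave 4 higher and 2 lower at peak, 3 and 0 at early resolution, and 2 and 0 at late resolution. After scaling these were 3 and 3, 2 and 0, and 2 and 2. Tmem173 (STING), which relays cytosolic DNA sensing, differed by 0.96 ± 0.14 at peak (limma, adjusted p = 3.1e-06), 0.42 after scaling at early resolution and 0.76 ± 0.15 at late resolution (limma, adjusted p = 0.0008). Of 13 inhibitors 3 were higher and 1 lower at peak, or 3 and 3 after scaling. At either later stage 0 were called (limma; 1 and 3 at an unadjusted p under 0.05; 0 and 2 after scaling). The phosphatases Ptpn1 and Ptpn2, which dephosphorylate Janus kinases, differed by 0.94 ± 0.18 and 0.89 ± 0.18 at peak. Of 19 MHC class I and loading genes, 9 were higher at peak (1 lower), 12 at early resolution (2 lower) and 10 at late resolution (0 lower), or 9, 9 and 11 higher and 1, 3 and 0 lower after scaling, led at late resolution by the non-classical molecule H2-T23 at 0.71 ± 0.13 (limma, adjusted p = 0.00019).

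A further list held 68 tested interferon-induced genes outside the member list. Under the ethanol label 25 were higher and 2 lower at peak (23 and 4 after scaling), 27 and 0 at early resolution (19 and 2), and 27 and 0 at late resolution (26 and 1), and at each stage most were not called. Of all genes 17.3%, 14.3% and 8.82% were called higher. The list had medians of 0.30, 0.37 and 0.40 on deposited TPM. Ifitm1, which restricts virus entry at membranes, differed by 1.21 ± 0.18 at peak (limma, adjusted p = 2.1e-06). Slfn2, a regulator of immune cell quiescence, differed by 0.83 at early resolution after scaling (1.00 on deposited TPM; adjusted p = 3.1e-06), and Uba7, the enzyme that activates Isg15, by 0.90 ± 0.17 at late resolution (limma, adjusted p = 0.00023). Between sex labels at peak 33 of the 68 were lower and 0 higher, against 46.7% and 4.26% of all genes. After scaling 16 were lower and 9 higher, against 15.5% and 16.2% of all genes. The unscaled lower share was thus near that of all genes.

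Cell-type markers moved under the same labels, and their part in the members' differences was not tested. Of all genes 17.3%, 14.3% and 8.82% were called higher at the 3 stages. Of 9 T and NK cell markers tested 3 were higher and 1 (Cd4) lower at peak, 7 and 1 at early resolution (6 and 1 after scaling) and 7 and 0 at late resolution in ethanol-labelled libraries. Their summed level was 7.24 to 16.3 TPM against 5.23 to 7.95 TPM at peak, 7.99 to 23.3 TPM against 4.59 to 10.7 TPM at early resolution, and 10.2 to 28.7 TPM against 3.59 to 13.9 TPM at late resolution. Of 12 Kupffer cell and macrophage markers 1, 10 and 5 were higher at the 3 stages (1, 6 and 8 after scaling), with sums of 252 to 667 TPM against 263 to 512 TPM at peak, 480 to 786 TPM against 179 to 590 TPM at early resolution and 519 to 856 TPM against 223 to 911 TPM at late resolution. Of 4 B cell markers 0, 2 and 4 were higher (1, 4 and 4 at an unadjusted p under 0.05; 0, 0 and 4 after scaling), with late sums of 5.49 to 42.3 TPM against 1.56 to 6.37 TPM.

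Of 9 endothelial markers 9, 3 and 0 were higher under the ethanol label (limma; 9, 6 and 4 at an unadjusted p under 0.05; 8, 0 and 0 after scaling), and of 9 stellate cell markers 6, 3 and 0 (9, 7 and 2 at an unadjusted p under 0.05; 7, 1 and 0 after scaling). Their summed levels at peak were 89.9 to 281 TPM against 58.6 to 211 TPM and 77.3 to 265 TPM against 35.6 to 113 TPM. Of 4 plasmacytoid dendritic cell markers 1, 2 and 2 were higher (2, 1 and 2 after scaling), Bst2 being a member as well. Of 5 neutrophil markers 1 (Ngp) was higher and 1 (Csf3r) lower at peak. At early resolution 1 was higher and 0 lower, and at late resolution 0 were called, the same after scaling. Of 8 hepatocyte markers 1 was higher and 1 (Cyp2e1) lower at peak, 1 and 0 at early resolution and 2 and 1 at late resolution. No marker on these lists was at 0 in all libraries. All 8 hepatocyte markers, Alb among them, passed the filter on low values.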

How the data were processed

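Bulk RNA sequencing was measured in 45 mouse liver libraries. Per the labels' protocols, RNA was purified from liver with a spin-column kit and sequencing used a stranded mRNA library kit. The authors deposited 1 table for the series, which is named as normalized counts. Its values were read as TPM (reads per transcript length, scaled to a fixed total). They are not whole and sum to between 999999 and 1000001 per library. A fixed total does not by itself show division by transcript length. Alignment was to mm10, per the submitters' processing notes. Which aligner, counting tool and annotation they used was not given in the sources used here. TPM keep no depth, so the precision of each value is known only from the spread between libraries.

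Groups came from stage, diet and sex in the labels. Entries turned into dates or repeated (26 of 24972, 0.0441% of TPM) were left out. Genes averaging 0.5 TPM or more were fitted on log2(TPM + 0.5) with limma 3.58.1 (R 4.3.3), with 12 group means, a variance trend and 33 residual degrees of freedom. The Benjamini-Hochberg adjustment ran over all 11244 genes, with calls at 0.05. A diet-label difference averages the differences within the sex labels, ethanol minus control, and the reverse holds for sex labels (male minus female). A library shares the direction of a difference if, on deposited TPM, its value is beyond the mean of the opposite label at the same stage and in the same remaining label, on the side of that difference. Up to 3 members per role, those with the smallest p over the 6 label differences, are given with their values at each stage; a few others are named because the text turns on them. In female-labelled libraries at peak all 4 same-numbered pairs across diet labels correlated in their deviations from the group means (0.109 to 0.222), so the blocked values are given there. The members and gene lists were chosen with earlier results of these data known. Median-of-ratios scaling divides each library by its median ratio to the gene-wise geometric means.

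Alternatives were pseudocounts of 0.1 and 2, no filter, a 5 TPM minimum, quantile normalization, median-of-ratios scaling, no variance trend, each stage alone, a block for replicate numbers, leaving out each library, and ethanol female against control male groups. On simulated data for the late diet-label difference (11244 genes) the fit recovered 90 of 100 genes changed by 1 and 98 of 100 changed by 2 on the log2 scale, with 24 false calls. Gene positions and exon overlaps are from GENCODE on mm10, and promoters from RefSeq on GRCm38.p6. Other software was matplotlib 3.10.9, scipy 1.17.1, pandas 2.3.3, numpy 2.4.6 and Python 3.11.15.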

Additional observations from a re-analysis of the deposited data

Results flagged for a closer look

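In groups of 4 libraries, a library was singled out when its gap to the nearest other was an unusually large share of the group's range. Over 21 members 189 groups were checked and 14 values were found. Chance flags about 1 in 20 groups of independent, normally distributed values. Members tended to lie together within a library, so that rate is no yardstick for the 14. Late control female 1 stood high for 3 members: Gbp3 at 10.7 TPM (the other 3 libraries at 1.85 to 3.19 TPM), Gbp2 at 19.4 TPM (2.20 to 4.11 TPM) and Ifi27l2a at 17.0 TPM (6.22 to 7.17 TPM). Peak ethanol male 4 also stood high for 3: Gbp3 at 11.6 TPM (5.52 to 6.49 TPM), B2m at 787 TPM (608 to 637 TPM) and Ifi44 at 0.954 TPM (0.542 to 0.610 TPM).

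Peak control male 2 was high for 3 as well: Oasl2 at 3.40 TPM (1.69 to 1.94 TPM), Gbp3 at 2.54 TPM (1.59 to 1.75 TPM) and Tap1 at 4.38 TPM (3.14 to 3.34 TPM). Single high values were B2m at 1160 TPM in peak control female 4 (836 to 843 TPM) and Zbp1 at 11.1 TPM in early control male 4 (8.98 to 9.32 TPM). Low values were Isg15 at 7.12 TPM in peak ethanol female 1 (10.9 to 11.2 TPM), Trim25 at 14.8 TPM in early ethanol male 2 (25.4 to 27.0 TPM) and Oas2 at 2.84 TPM in early ethanol male 3 (4.86 to 5.13 TPM).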

How the results depend on the processing

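Of the counts of members called, 127 values under the alternatives other than leaving out a library stayed within 1.5 times the main count and 29 did not. With 1 library left out, 198 did and 43 did not. For counts with a library left out, here and above, and for most alternatives, shares of all genes are not given. Such counts therefore do not show whether a change is particular to the members. Of the members given with values at each stage, no called difference reversed between diet labels or between sex labels at peak. Differences that were not called were left out of this check. Among them, those of Ddx58, Tap1 and B2m between diet labels at peak changed sign in ethanol female against control male groups. The balance of sex-label calls at peak turned from 2 higher and 14 lower to 6 and 3 after median-of-ratios scaling. Under a 5 TPM minimum, which leaves fewer members to test, the diet-label counts were 6, 11 and 14 at peak, early and late resolution, 9 in early male-labelled libraries, 4 in late female-labelled libraries, and 8 at peak and 0 at early resolution between sex labels. With each stage fitted alone (fewer libraries for the spread) they were 13 for late diet labels, 3 in peak female-labelled libraries, 0 in late female-labelled libraries, 1 in late male-labelled libraries and 0 for early sex labels. Ethanol female against control male groups gave 21 at peak. A pseudocount of 2 gave 0 in peak female-labelled libraries, 2 in early female-labelled libraries and 1 for late sex labels, and no filter gave 0 in peak female-labelled libraries. Quantile and median-of-ratios scaling both gave 11 in late male-labelled libraries and 2 for the change from peak to late; they gave 5 and 3 for early and 4 and 3 for late sex labels, and median-of-ratios scaling gave 9 for peak sex labels. Apart from the filter, the cause was not tested. With 1 library left out, diet-label counts ran from 10 to 16, 13 to 23 and 14 to 24 at the 3 stages, 0 to 1, 0 to 3 and 0 to 22 in female-labelled libraries, and 4 to 14, 6 to 19 and 2 to 9 in male-labelled ones. Sex-label counts ran from 12 to 19, 0 to 1 and 0 to 2, and those for changes after peak from 0 to 1 (early) and 0 to 2 (late). Of the single-gene differences, 610 kept their call with 1 library left out and 32 lost it.

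Replicate numbers paired the libraries in female-labelled livers at peak and not elsewhere by the rule that every pair exceed 0.1, though 3 of 4 pairs of early male-labelled libraries also did (0.151 to 0.25). Over all groups same-numbered deviations correlated at -0.371 to 0.25 across diet labels (7 of 21 pairs best with their own number) and -0.433 to 0.527 across sex labels (6 of 22). With the replicate number as a block, 3 members were called in peak female-labelled libraries, 2 in late female-labelled libraries and 0 for early sex labels, and of the single-gene calls 41 were kept and those of Irf7 and Oas2 at late resolution were lost. Shares of all genes are not given for the blocked counts.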

Other observations

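Members tended to lie together within a library. All 44 tested members were above their own group's mean in peak ethanol male 4 (median deviation 0.467 on the log2 scale), late control female 1 (0.596) and late ethanol male 3 (0.228). Of the 44, 1 was above it in early ethanol female 1 (median deviation -0.420), and 2 were in late control female 4 (-0.484) and in late ethanol male 2 (-0.191). Deviations within a group of 3 or 4 libraries sum to 0 for each gene, so high and low libraries of 1 group are not independent.

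Variation among libraries of 1 group was smallest for Irf9, with a pooled SD of 0.216 on the log2 scale. It was largest for Gbp6 at 0.579, Rsad2 at 0.536 and Ifi27l2a at 0.507.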
